A study of Homo sapiens with 13 samples.

Results

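Small nucleolar RNA (snoRNA) host genes were examined for chromatin accessibility in G1 and in M-phase of T98G cells, an established human glioblastoma line. The 10 genes were GAS5, SNHG1, SNHG3, SNHG5, SNHG6, SNHG8, SNHG12, SNHG15, SNHG16 and ZFAS1, all annotated as lncRNA genes. A peak was assigned to a gene when it overlapped the gene body extended by 2 kb on each side (GENCODE release 44, hg19). This gave 26 of the 129347 peaks in the deposited table. Each of the 10 genes had a peak over an annotated transcription start site (TSS), called its promoter peak here, and the other 16 peaks belonged to 6 of the genes.

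SnoRNAs are short nuclear RNAs that guide the chemical modification of ribosomal RNA, box C/D snoRNAs for methylation of the ribose and box H/ACA snoRNAs for pseudouridylation. In human cells most of them lie in introns and are released when the host transcript is spliced. The spliced host RNAs in this family encode no long protein, many of them begin with a terminal oligopyrimidine (TOP) tract like the mRNAs of ribosomal proteins, and several are degraded by nonsense-mediated decay when they are translated. GAS5 takes its name, growth arrest-specific, from the accumulation of its RNA in cells that have stopped growing. By RefSeq names, the 10 genes hold 36 snoRNAs, 28 of box C/D and 8 of box H/ACA type. GAS5 holds 11 of them, SNHG1 holds 8, SNHG12 holds 4, and the other genes hold between 1 and 3 each.

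ATAC-seq, in which the Tn5 transposase inserts sequencing adapters into open chromatin, was carried out with 3 replicates of each phase. G1 cells had been starved of serum for 72 h. M-phase cells had been starved for 48 h, released for 36 h into medium with 20% serum and nocodazole at 0.2 μg/mL, which blocks spindle assembly and holds cells in mitosis, and collected by shake-off. G1 libraries were sequenced on the HiSeq alone, M-phase libraries on the HiSeq and on the NextSeq, and the table does not keep the M-phase runs apart. Serum release, nocodazole and sequencing platform therefore cannot be told apart from the cell cycle phase. The labels do not say that replicates were separate cultures, so p-values measure the spread between these libraries, which may be technical. In a bulk measurement, fewer cells with an open site and less open chromatin per cell cannot be told apart either.

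The deposited values, called scaled counts below, are the numbers of reads in each peak after the authors had brought all libraries to the size of the smallest. They summed to between 4191845 and 5092426 in the G1 libraries and between 5475345 and 6000423 in the M-phase libraries (two-sided exact permutation p = 0.1, the smallest that 3 against 3 allows). The steps between the values correspond to 4333935 to 5365024 reads in peaks in G1 and 12470564 to 14202790 in M-phase. Of the 7 glial and mesenchymal marker genes, VIM, CD44, OLIG2 and EGFR had a promoter peak that passed the filter on low values, SOX2 had a peak below it, and NES and GFAP had none. Of 7 markers of other lineages, EPCAM alone had a promoter peak, and PECAM1 was not in the annotation.

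In the values as deposited, the promoters of most of these host genes were more accessible in M-phase than in G1. The largest changes were at SNHG1, ZFAS1 and SNHG16, each with a log2 change above 1, followed by GAS5 and SNHG3. Smaller rises were measured at SNHG15, SNHG6 and SNHG5, while SNHG12 and SNHG8 did not pass the test. By limma, with p-values adjusted over the 73121 peaks that passed the filter, 8 of the 10 promoter peaks were higher in M-phase and 0 were lower. Leaving out each library in turn left 5 to 8 of them higher, with 5 without M-phase replicate 2. Of all 15500 promoter peaks tested, 43.2% were higher in M-phase and 5.94% lower, against 14.3% and 13.1% of all peaks. The median log2 change of the 10 promoter peaks was 0.78, beside 0.39 over all promoter peaks and 0.02 over all peaks. These results depended on the scaling. When every library was set to the same total in peaks 5 of the 10 were called higher, and with a trended loess normalization 3, in each case with 0 called lower. Of all promoter peaks, 29.3% and 21.3% were higher and 17.2% and 17.1% lower under these settings. The common total moved the median of all peaks from 0.02 to -0.23 and that of the 10 promoters to 0.44, beside 0.0675 over all promoter peaks. With loess the median of the 10 was 0.0853, beside 0.0640 over all promoter peaks, and the log2 changes of GAS5, SNHG5 and SNHG12 turned negative.

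The sequences around the start sites are shown so that the pyrimidines at the start, which define a TOP tract, can be compared between the genes. Each line below gives 30 bases before and 50 after the start on the strand of the gene, with hg19 coordinates. Capitals mark the longest run of C and T that begins with C within 10 bases of the start. Starts are those of RefSeq (GRCh38.p14), placed on hg19 by an exact match of the sequence, except for GAS5, where the RefSeq start lies outside the promoter peak and the canonical start of GENCODE was used.
GAS5, chr1:173837078-173837157, minus strand: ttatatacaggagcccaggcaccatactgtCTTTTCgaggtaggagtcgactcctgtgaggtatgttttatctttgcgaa
SNHG1, chr11:62623308-62623387, minus strand: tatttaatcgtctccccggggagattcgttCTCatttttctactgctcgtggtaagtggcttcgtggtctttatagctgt
SNHG5, chr6:86388402-86388481, minus strand: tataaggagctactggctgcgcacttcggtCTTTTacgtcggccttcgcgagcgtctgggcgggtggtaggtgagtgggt
SNHG8, chr4:119199887-119199966, plus strand: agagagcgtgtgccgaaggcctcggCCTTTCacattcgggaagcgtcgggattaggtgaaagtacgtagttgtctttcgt
SNHG12, chr1:28908336-28908415, minus strand: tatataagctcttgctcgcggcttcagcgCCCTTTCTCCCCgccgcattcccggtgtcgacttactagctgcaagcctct
SNHG16, chr17:74553816-74553895, plus strand: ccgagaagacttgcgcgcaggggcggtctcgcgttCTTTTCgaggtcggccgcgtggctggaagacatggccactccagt
ZFAS1, chr20:47895149-47895228, plus strand: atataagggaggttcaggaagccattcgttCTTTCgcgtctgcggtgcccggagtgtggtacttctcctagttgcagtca

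A run of at least 5 pyrimidines began within 10 bases of the RefSeq start of 5 of the 8 host genes with an entry. It began at the first base of the transcript in SNHG5 and ZFAS1 and 1 base before that in SNHG12. In SNHG8 it began 5 bases before the start, and in SNHG16 at base 6. By the same rule such a run was present in 31.4% of the 35116 promoters in the RefSeq table and in 87.1% of 62 ribosomal protein genes. At a length of at least 6 the run was present in 3 of 8 host genes, 19.2% of all promoters and 79.0% of ribosomal protein genes, and at a length of at least 7 in 1 of 8, SNHG12, beside 12.3% and 77.4%. At SNHG1 the run is interrupted after 3 letters, at the RefSeq start of GAS5 it has 1, and at the GENCODE start of GAS5 it has 6. Of the 5 genes with a run of at least 5 at the RefSeq start, ZFAS1, SNHG16 and SNHG5 were called higher in the values as deposited. The promoters of SNHG8 and SNHG12 did not pass the test. SNHG6 and SNHG15 had no entry, and SNHG3 is not printed because the bases after its start are annotated as part of RCC1 transcripts.

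GAS5 is the best known gene of this group. Its promoter peak (chr1:173836131-173838038) also covers the start of ZBTB37, a zinc finger gene on the other strand. Scaled counts were 608.4, 449.2 and 581 in G1 replicates 1, 2 and 3, and 960.7, 1052.3 and 1111.5 in M-phase replicates 1, 2 and 3. All M-phase libraries lay above all G1 libraries, and the lowest value was in G1 replicate 2. The mean was 546 ± 85.1 in G1 and 1042 ± 76.0 in M-phase (SD, n = 3 each), which gave a log2 change of 0.93 (SE 0.15, limma adjusted p = 6.62e-07). With trended loess the log2 change was -0.13 (adjusted p = 0.289), so the direction at GAS5 depends on the scaling. With an equal total in peaks it was 0.58 (adjusted p = 3.73e-06).

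ZFAS1, which holds SNORD12, SNORD12B and SNORD12C, is transcribed from a shared promoter with ZNFX1, the gene of a helicase that takes part in antiviral defence. The peak (chr20:47893725-47895979) had scaled counts of 620.4, 443 and 603 in G1 and 1104, 1222.9 and 1407 in M-phase. The phases did not overlap, and as at GAS5 the second G1 replicate was the lowest. The means were 555 ± 97.8 and 1245 ± 153 (SD, n = 3 each), a log2 change of 1.16 (SE 0.15, limma adjusted p = 1.52e-09). The log2 change was 0.81 (adjusted p = 7.03e-10) with an equal total in peaks and 0.06 (adjusted p = 0.652) with trended loess.

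SNHG1 carries the SNORD22 and SNORD25 to SNORD31 genes and faces SLC3A2, which encodes the heavy chain of several amino acid transporters. Its peak (chr11:62622593-62624040) had scaled counts of 187.9, 140.6 and 153 in G1 and 352.2, 370.4 and 413.3 in M-phase. This was the largest change among the 10 promoters, with means of 160.5 ± 24.5 and 379 ± 31.4 (SD, n = 3 each) and no overlap between the phases. The log2 change was 1.20 (SE 0.18, limma adjusted p = 7.12e-08), a size exceeded by 7.47% of all promoter peaks. It was 0.86 (adjusted p = 1.76e-06) with an equal total in peaks and 0.63 (adjusted p = 0.00029) with trended loess.

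SNHG16, the host of the SNORD1 family, had scaled counts of 119.3, 124.2 and 136 in G1 and 265.3, 243.5 and 285.3 in M-phase at its promoter peak (chr17:74553087-74554746). The G1 libraries differed little among themselves and all lay below the M-phase libraries. The log2 change was 1.02 (SE 0.19, limma adjusted p = 9.13e-06), and it remained called with an equal total in peaks (0.68, adjusted p = 0.000312) and with trended loess (0.57, adjusted p = 0.00279).

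SNHG3 holds the box H/ACA snoRNAs SNORA73A and SNORA73B and shares its promoter with RCC1, the nucleotide exchange factor of the GTPase Ran on chromatin. The peak (chr1:28832178-28833296) had scaled counts of 145.1, 97.7 and 133 in G1 and 257.1, 224.1 and 246.8 in M-phase. The phases did not overlap, and the log2 change was 0.93 (SE 0.19, limma adjusted p = 7.54e-05). It was 0.59 (adjusted p = 0.00272) with an equal total and 0.50 (adjusted p = 0.0125) with trended loess, so that SNHG1, SNHG16 and SNHG3 were the promoters called higher under all of these scalings.

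**Figure D1:**
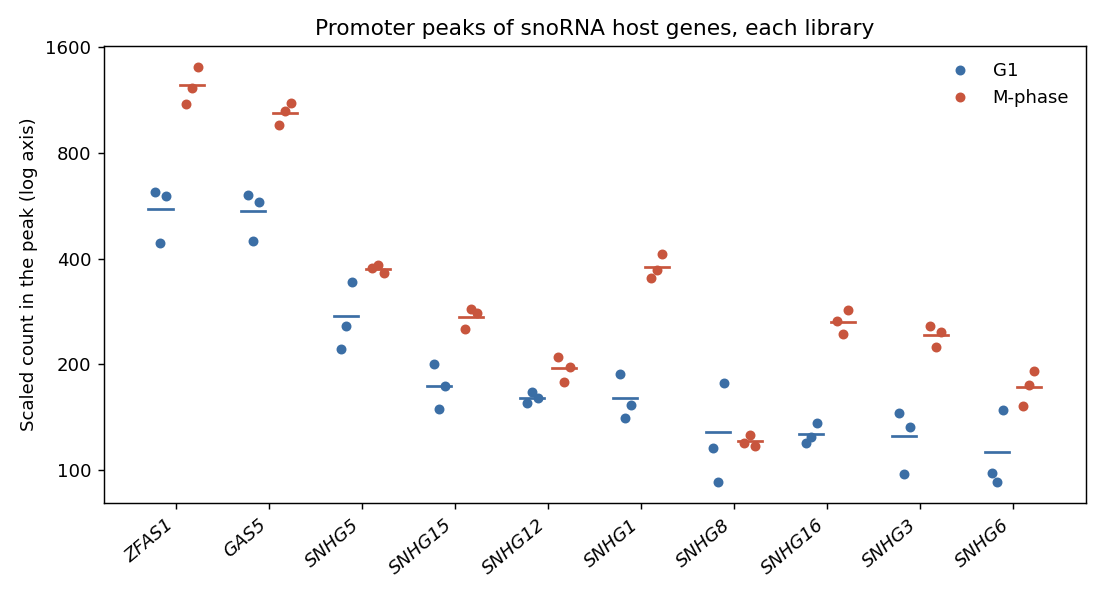
Scaled count (log axis) of the promoter peak of each host gene in every library, with blue points for the 3 G1 and red points for the 3 M-phase libraries and a bar at each mean. At ZFAS1 the G1 libraries reach 620.4 and the M-phase libraries start at 1104, whereas at SNHG8 the M-phase libraries fall within the G1 range of 92.2 to 177.

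Rises at the next 3 genes were smaller and lost their call with an equal total in peaks and with trended loess. Scaling by the trimmed mean of M values (TMM) kept the calls (limma adjusted p = 0.00232 at SNHG15, 0.0108 at SNHG6 and 0.0208 at SNHG5). SNHG15, the host of SNORA9, had scaled counts of 199.8, 149.2 and 173 in G1 and 251.7, 286.8 and 280.5 in M-phase (chr7:45025695-45026651). Its log2 change was 0.63 (SE 0.18, limma adjusted p = 0.00511) without overlap of the phases, and it was not called without M-phase replicate 2 (0.60, adjusted p = 0.0511). With an equal total in peaks the change was 0.29 (adjusted p = 0.124), and with trended loess it was 0.11 (adjusted p = 0.617).

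SNHG6, the host of SNORD87, had scaled counts of 98.4, 92.2 and 148 in G1 and 152.4, 174.3 and 192 in M-phase (chr8:67837090-67838099). G1 replicate 3 lay close to the lowest M-phase library. The log2 change of 0.60 (SE 0.20, limma adjusted p = 0.0169) was not called without G1 replicate 1 (0.53), G1 replicate 2 (0.48), M-phase replicate 2 (0.60) or M-phase replicate 3 (0.53), with adjusted p-values up to 0.106. It was 0.27 (adjusted p = 0.228) with an equal total in peaks and 0.28 (adjusted p = 0.234) with trended loess.

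SNHG5, the host of SNORD50A and SNORD50B, had scaled counts of 221.7, 257 and 343 in G1 and 374.9, 384.4 and 364.7 in M-phase (chr6:86387870-86389165). The G1 libraries were spread widely and the M-phase libraries lay close together above them. The log2 change was 0.46 (SE 0.17, limma adjusted p = 0.0367). It was not called without G1 replicate 1 (0.33) or 2 (0.43), nor without M-phase replicate 1 (0.46), 2 (0.45) or 3 (0.48), with adjusted p-values up to 0.257. It was 0.12 (adjusted p = 0.533) with an equal total and -0.22 (adjusted p = 0.193) with trended loess.

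SNHG12 and SNHG8 did not pass the test. SNHG12, the host of SNORD99 and of SNORA16A, SNORA44 and SNORA61, had scaled counts of 155.1, 167.2 and 160 in G1 and 210.5, 177.6 and 196.8 in M-phase (chr1:28907623-28908765). The M-phase libraries lay above the G1 libraries, but the log2 change of 0.26 (SE 0.19) had an adjusted p of 0.325 by limma, and it was -0.08 with an equal total and -0.17 with trended loess. SNHG8, the host of SNORA24, had 115.3, 92.2 and 177 in G1 and 119.5, 126.1 and 117.4 in M-phase (chr4:119199516-119200389). The M-phase values were inside the range of G1, where replicate 3 was the highest, and the log2 change was -0.03 (SE 0.21, adjusted p = 0.937), or 0.21 (adjusted p = 0.466) without G1 replicate 3. Promoter peaks in which the phases did not overlap numbered 9 of 10, compared with 57.2% of all promoter peaks.

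**Figure D2:**
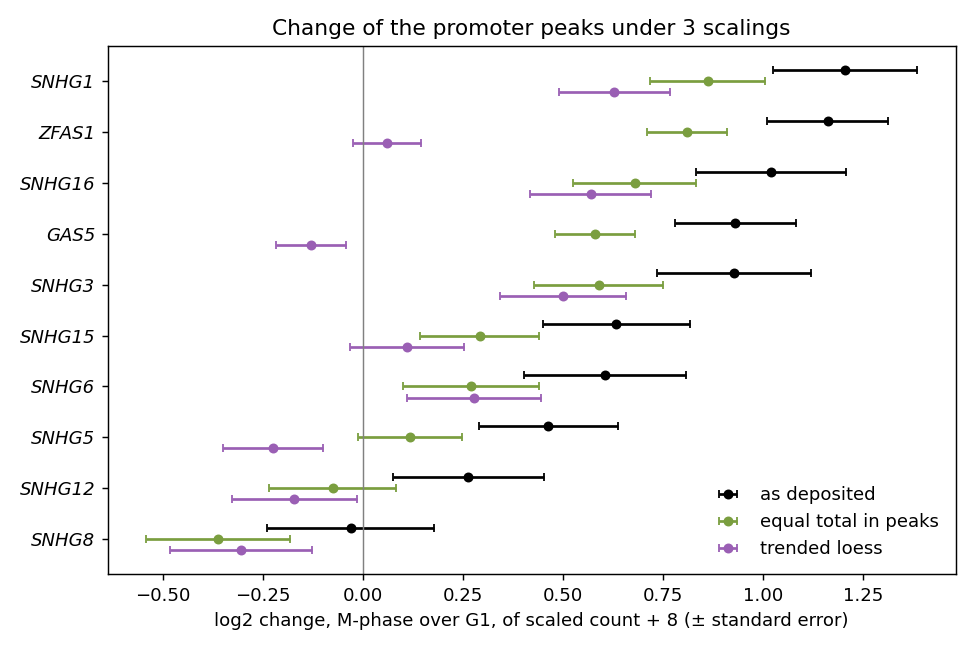
Change of each promoter peak in log2 of scaled count + 8 (horizontal axis, M-phase over G1, with standard error) for the values as deposited, for an equal total in peaks and for trended loess. SNHG1, SNHG16 and SNHG3 stay above 0 in all 3, at 0.50 or more, while GAS5 moves from 0.93 to -0.13.

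The 5 promoter peaks that also cover the start of a protein-coding gene were those of GAS5, SNHG1, SNHG3, SNHG5 and ZFAS1, where the protein-coding gene at SNHG5 has no symbol. On the values as deposited all 5 were called higher in M-phase, with a median log2 change of 0.93. Over all promoter peaks, with or without such a start, these were 43.2% and 0.39. Of the 5 without a protein-coding start, 3 were called higher and the median was 0.60. Over all 2369 promoter peaks without one, 21.4% were higher and the median was 0.11. With an equal total in peaks the medians of these groups of 5 were 0.59 (SNHG3) and 0.27 (SNHG6). With trended loess the median of the 5 shared peaks was that of ZFAS1 (0.06), and only SNHG1 (0.63) and SNHG3 (0.50) were called. The median of the other 5 was then that of SNHG15 (0.11), with SNHG16 (0.57) alone called, so the order of the medians was reversed. The division of the signal between the host gene and its partner cannot be read from a peak that covers both starts. The difference between these groups of 5 was not tested.

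As a level per length of peak, GAS5 came first in G1 with 286 ± 44.6 scaled counts per kb (SD, n = 3), ahead of ZFAS1 with 246 ± 43.4, SNHG5 with 211 ± 48.1 and SNHG15 with 182 ± 26.5. SNHG8 and SNHG12 followed with 147 ± 50.2 and 141 ± 5.32. Down to here each gene differed from the next by less than the larger of their SDs. SNHG3, SNHG6 and SNHG1 lay between 111 and 112 and were not separable, with SNHG3 below SNHG12 by more than the larger SD, and SNHG16 was the lowest with 76.2 ± 5.17, below SNHG1 by more than either SD.

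In M-phase ZFAS1 with 552 ± 67.7 and GAS5 with 546 ± 39.8 scaled counts per kb were not separable from each other and stood above the rest. SNHG5 with 289 ± 7.60 and SNHG15 with 285 ± 19.6 came next and were not separable, followed by SNHG1 with 261 ± 21.7, SNHG3 with 217 ± 15.1 and SNHG6 with 171 ± 19.6. SNHG12 with 171 ± 14.5 and SNHG16 with 159 ± 12.6 did not differ from their neighbour above by more than its SD. SNHG8 was the lowest with 138 ± 5.19, below SNHG16 by more than either SD. SNHG1 thus moved from rank 9 to rank 5 and SNHG8 from rank 5 to rank 10. These levels depend on the width of the called peak, which ran from 874 bp at SNHG8 to 2255 bp at ZFAS1. Together the 10 promoter peaks held 0.0480% to 0.0574% of the total in the G1 libraries and 0.0728% to 0.0769% in the M-phase libraries.

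**Figure D3:**
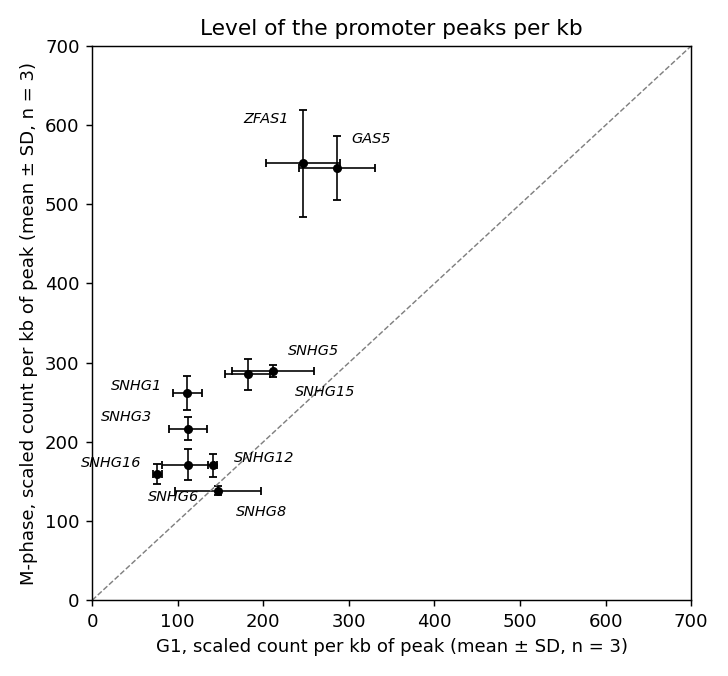
Level of each promoter peak per kb of peak in G1 (horizontal) and M-phase (vertical), as mean and SD of 3 libraries, with the dashed line marking equal levels. GAS5 and ZFAS1 stand apart at about 546 and 552 scaled counts per kb in M-phase, and SNHG8 lies on the line.

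Beyond the promoters, 8 of the 16 remaining peaks passed the filter. Of these, 3 were higher in M-phase, 3 were lower and 2 were not called, where 27.3% of all tested peaks were called in either direction. Of the 8, 5 overlapped no TSS and 3 of those were called, beside 21.5% of all tested peaks without a TSS. The 8 peaks that were not tested had mean scaled counts of 1.30 to 8.23 and widths of 69 to 224 bp, and belonged to GAS5, SNHG1, SNHG6, SNHG16 and ZFAS1. Counting promoters as well, 18 of the 26 peaks were tested, with 11 higher and 3 lower, beside 14.3% and 13.1% of all tested peaks. The phases did not overlap in 16 of the 18, beside 38.3% of all tested peaks. The 18 include the 10 promoter peaks and 3 at starts of other genes. Of all promoter peaks, 43.2% were higher, 5.94% lower and 57.2% without overlap.

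Most of these peaks lay over SNHG16, whose annotation extends over 113259 bp and encloses ST6GALNAC2, a sialyltransferase gene. Of its 10 peaks 6 were tested. An exonic peak (chr17:74558753-74559244) rose together with the promoter, with scaled counts of 25.8, 21.1 and 28 in G1 and 51.1, 58.5 and 44.3 in M-phase. All M-phase libraries were above the G1 libraries, with a log2 change of 0.85 (SE 0.26, limma adjusted p = 0.00824), which was not called without M-phase replicate 2 (0.76, adjusted p = 0.0692) or with an equal total in peaks (0.56, adjusted p = 0.0775).

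Further into SNHG16 the direction was the opposite at starts of other genes. The peak at the start of ENSG00000267078 (chr17:74565763-74566330), inside ST6GALNAC2, had 86.5, 100 and 99 in G1 and 47, 34.6 and 50.5 in M-phase, so every M-phase library was below every G1 library. It fell by 0.998 on the log2 scale (SE 0.23, limma adjusted p = 0.000368). The peak at the start of ST6GALNAC2 (chr17:74581643-74582356) had 101.4, 79.7 and 73 in G1 and 54.4, 52.3 and 28.4 in M-phase, also without overlap. Its log2 change was -0.83 (SE 0.24, adjusted p = 0.00443), and without M-phase replicate 3, the lowest library, it was -0.58 (adjusted p = 0.0989).

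Just beyond the 3′ end of SNHG16, the peak at the start of ENSG00000261335 (chr17:74667278-74668264) had 94.4, 139.1 and 195 in G1 and 222.9, 218 and 238.2 in M-phase. The G1 libraries were widely spread below the M-phase libraries. The log2 change was 0.69 (SE 0.20, limma adjusted p = 0.00462), and it was not called without G1 replicate 1 (0.44, adjusted p = 0.135), with an equal total (0.35, adjusted p = 0.0905) or with trended loess (0.26, adjusted p = 0.253). An intronic peak (chr17:74564249-74564414) was tested but not called, with a log2 change of 0.29 (adjusted p = 0.485).

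**Figure D4:**
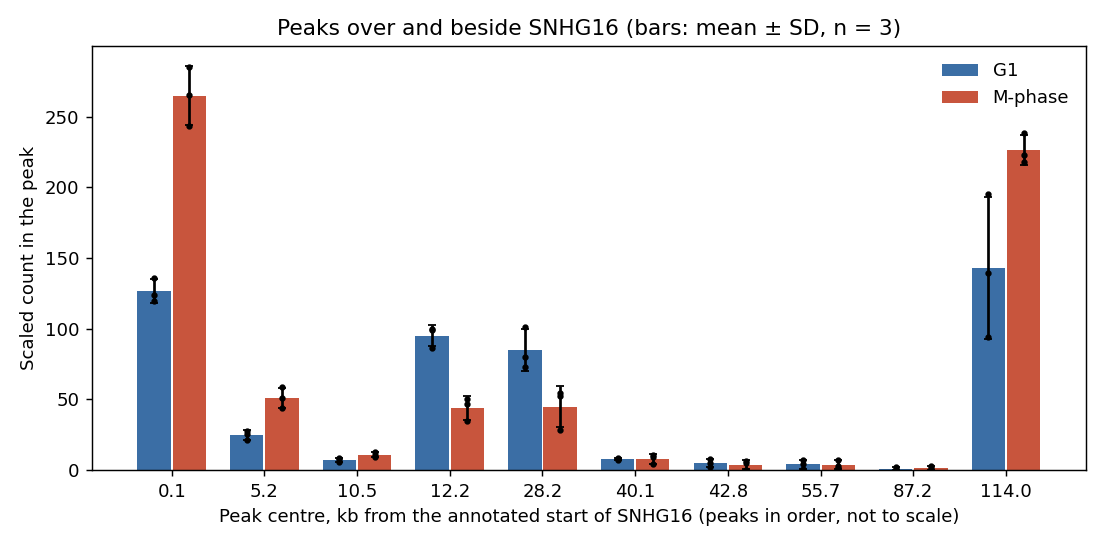
Scaled count of the 10 peaks of SNHG16 in their order along the gene (horizontal axis, distance of the peak centre from the annotated start in kb, not to scale), with bars for the mean, whiskers for the SD and points for the 3 libraries of each phase. The promoter peak and the last peak are taller in M-phase, and the peaks at the starts of ENSG00000267078 and ST6GALNAC2 are taller in G1.

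Of the other genes, SNHG5 had an exonic peak that was lower in M-phase (chr6:86369890-86370298), with scaled counts of 52.7, 50 and 77 in G1 and 28, 38.3 and 28.4 in M-phase. The phases did not overlap, and the log2 change was -0.77 (SE 0.25, limma adjusted p = 0.0144). It was not called without G1 replicate 3 (-0.59, adjusted p = 0.0836), M-phase replicate 1 (-0.70, adjusted p = 0.0684) or M-phase replicate 3 (-0.71, adjusted p = 0.0554). This peak overlaps PKMP3, a pseudogene of PKM, and its count is uncertain because mapping kept reads with up to 3 locations in the genome.

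Downstream of SNHG1, a small peak (chr11:62618909-62619092) had scaled counts of 7, 8.6 and 5 in G1 and 22.7, 28.8 and 24.5 in M-phase. The log2 change of 1.17 (SE 0.29, limma adjusted p = 0.000843) understates the ratio of the means, 3.69, because 8 was added to each value. In GAS5, an intronic peak (chr1:173830779-173831119) had 22.9, 10.2 and 18 in G1 and 25.1, 28 and 22.1 in M-phase. The phases overlapped there, and the log2 change of 0.43 was not called (adjusted p = 0.281).

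The promoter peaks whose pattern over the 6 libraries was most like that of GAS5 were sought among 11239 promoter peaks of protein-coding genes with a mean of at least 50. Likeness was the Euclidean distance between centred log2 values. The closest peak was shared by AIMP2, a scaffold protein of the aminoacyl-tRNA synthetase complex, and PMS2, a mismatch repair gene, at a distance of 0.0607 and with a log2 change of 0.96. AIMP2 is itself among the protein-coding snoRNA hosts counted below, with this same peak. ZNF592 followed at 0.0753 (log2 change 0.88) and TMEM179B at 0.0770 (log2 change 0.92).

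Beside 43.2% higher and 5.94% lower over all promoter peaks, protein-coding snoRNA hosts had 127 of 209 promoter peaks higher in M-phase and 7 lower. The median log2 change of these hosts was 0.69. With an equal total in peaks 102 were higher and 24 lower, and with trended loess 64 and 31. The largest changes there were at EEF2, the translation elongation factor, with 1.77 (SE 0.19, limma adjusted p = 1.12e-12), at RPL3 with 1.74, and at DKK2, an inhibitor of Wnt signalling, with -1.68.

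For the other lncRNA hosts, 18 of 30 peaks were higher and 0 lower, with a median of 0.56. Under an equal total 13 were higher and 4 lower, and with trended loess 8 and 6. The genes ENSG00000264772 (1.52), SNHG25 (1.51) and MIR31HG (1.27) changed most, and the peak of ENSG00000264772 is that of EIF4A1, a protein-coding host counted above. Of the 30 peaks, 14 cover a protein-coding start, with 10 higher and a median of 0.73. Over all promoter peaks, with or without such a start, these were 43.2% and 0.39. Of the 16 that cover none, 8 were higher, with a median of 0.47, beside 21.4% and a median of 0.11 over all 2369 promoter peaks without a protein-coding start. With trended loess the medians of the protein-coding hosts and of the other lncRNA hosts were 0.17 and 0.16, that of the 10 genes was 0.09, and that of all promoter peaks was 0.06.

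Cytosolic ribosomal protein genes, whose products are assembled on the RNA that snoRNAs modify, had 57 of 76 promoter peaks higher in M-phase and 0 lower. Their median log2 change was 0.80, close to the 0.78 of the 10 host genes, and the largest were RPL3 (1.74), RPL41 (1.63) and RPL26 (1.54). The counts were 42 higher and 5 lower with an equal total in peaks, and with trended loess 36 and 8. The median with loess was 0.38, beside 0.09 for the 10 host genes and 0.06 over all promoter peaks. Some genes count in both groups: 29 promoter peaks, 13.9% of those of protein-coding hosts and 38.2% of those of ribosomal protein genes, were shared.

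Among the proteins that bind snoRNAs, 3 of the 4 core proteins of box C/D particles had a higher promoter peak, beside 43.2% of all promoter peaks. These were FBL, the methyltransferase (1.13), SNU13 (0.98) and NOP56 (0.79). Of the 4 core proteins of box H/ACA particles 1 was higher, DKC1, the pseudouridine synthase (0.86, SE 0.18, limma adjusted p = 0.000115), and 1 was lower, GAR1 (-0.69, SE 0.21, adjusted p = 0.00731). With trended loess NOP56 (0.05) and DKC1 (0.31) were not called and GAR1 was at -0.98. Of 10 assembly factors 6 were higher and 0 lower, led by NOLC1 (1.47), PIH1D1 (1.30) and NUFIP1 (0.93). Higher and lower calls were 6 and 1 with scaling by the trimmed mean of M values (TMM), 5 and 1 with an equal total and 4 and 1 with trended loess.

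All 10 nonsense-mediated decay factors had a higher promoter peak in M-phase, beside 43.2% of all promoter peaks. The median log2 change of the 10 factors was 0.94, with the largest values at SMG9 (1.23), SMG6 (1.21) and UPF3A (1.20). With an equal total in peaks 9 of them were higher and 0 lower, and with trended loess 6 were higher and 1 lower. Of 8 regulators of mTOR signalling and TOP translation 7 were higher, with a median of 0.66, led by EIF4EBP2 (1.14), EIF4E (1.05) and RPTOR (0.89). Of these 8, 4 were higher and 0 lower with an equal total in peaks, and with trended loess 2 were higher and 2 lower.

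**Figure D5:**
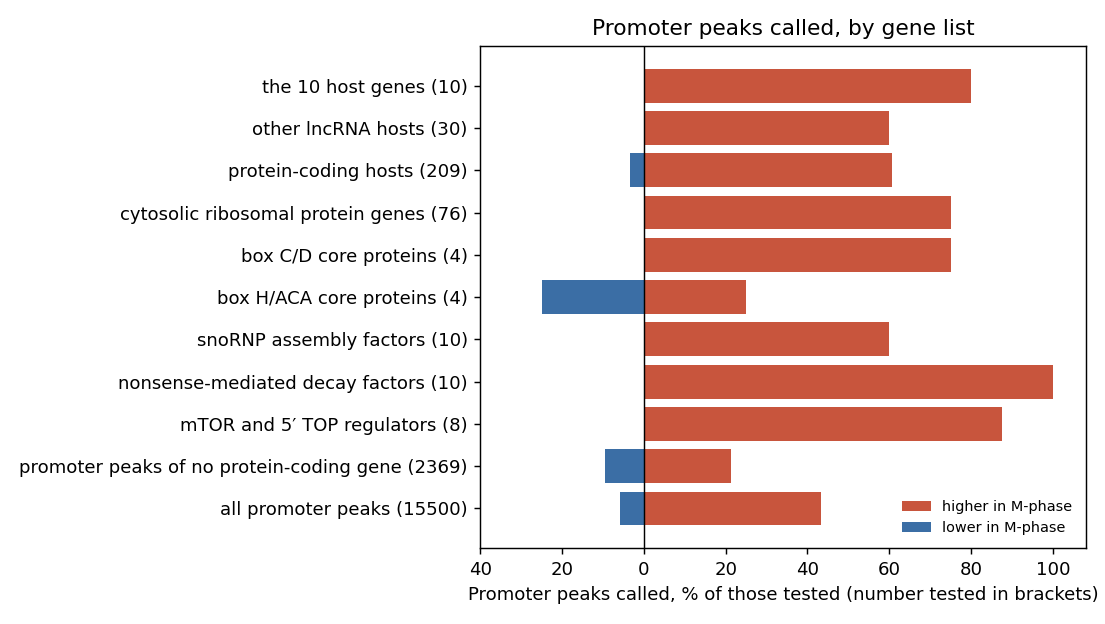
Share of tested promoter peaks called higher (red, right) or lower (blue, left) in M-phase for each gene list, in percent, with the number tested in brackets (limma on the values as deposited). Higher peaks make up 8 of 10 for the host genes and 75.0% for ribosomal protein genes, where all promoter peaks reach 43.2%.

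The median GC content of the promoter peaks of the host genes was 58.9%, beside 62.5% over all promoter peaks, with SNHG3 lowest at 50.6% and ZFAS1 highest at 62.8%. The ratio of observed to expected CpG was 0.77 at the median, beside 0.73.

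Short motifs were searched on both strands of the RefSeq promoters, from 250 bases before to 50 after the start, for the 8 host genes with an entry. None of the motifs contains another. The window of GAS5 is that of its RefSeq start, which lies outside the promoter peak in ZBTB37 and is not the start printed above. The GC box GGGCGG was found in 6 of 8 (45.0% of all promoters), namely SNHG1, SNHG5, SNHG8, SNHG12, SNHG16 and ZFAS1, and CCAAT in GAS5 and SNHG5 (34.6%). The TATA sequence TATAAA was found in SNHG1 (11.5%), where the printed bases hold it after the start and on the other strand. The search asked for no position within the window and counted exact matches only. TATAAG, which was not counted, lies in the printed bases before the start of SNHG5, SNHG12 and ZFAS1. The YY1 sequence AAGATGG was found in SNHG16 and ZFAS1 (5.84%), and the NRF1 sequence GCATGCGC in SNHG1, SNHG3 and SNHG8 (3.05%). The ETS sequence CCGGAAG (10.3%), the E-box CACGTG (7.26%) and the cAMP response element TGACGTCA (1.85%) were in 0 of the 8 windows. With 8 windows these are descriptions of the sequences only.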

How the data were processed

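The deposited table holds, per the study's methods, the reads of each hg19 peak as a signal that the authors brought to the size of the smallest library (rounded to 0.1). The authors trimmed adapters with cutadapt, mapped with Rbowtie in QuasR keeping reads with up to 3 locations, took out mitochondrial reads (SAMtools) and ran MACS2 in broad mode on pooled replicates. Versions, and whether read ends were shifted for Tn5, are not given in the sources used here. The authors' own log2 change and its SD are also in the table and were not used. Chromatin fraction and input libraries were not analysed here.

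The test was limma (3.58.1, R 4.3.3) on log2(scaled count + 8) of the 3 G1 and 3 M-phase libraries, with a trend of variance on mean and no covariates. Peaks entered with the equivalent of 10 in a library of median size in at least 3 libraries and a total of at least 15, which kept 73121 of 129347. P-values were adjusted by Benjamini-Hochberg over all of these and called under 0.05. A count model was not the main test because values are scaled. Since at least 99.91% of values in each library were whole multiples of a read within rounding, edgeR 4.0.16 and DESeq2 1.42.0 were run on the recovered reads as alternatives. In simulated data for these 73121 peaks with 200 changed peaks, drawn from peaks with a mean of at least 50, 5.5%, 67% and 99% of 1.5-fold, 2-fold and 4-fold changes were called, with 0, 8 and 6 false calls. Of changed peaks drawn from all peaks tested, 0%, 18.5% and 75.5% were called.

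The other alternatives were TMM, an equal total in peaks, trended loess, a pseudocount of 1, other filters, windows of 0 and 5 kb, a replicate block and each library left out. A peak counted as a promoter peak where it covered a TSS (GENCODE release 44 on GRCh37), and each gene was given its highest. Values per library are given for promoter peaks of the 10 genes and for any other peak of theirs with an adjusted p under 0.05, and from each other list at most the 3 genes with the largest absolute change are named. NOP56, DKC1 and AIMP2 also count as protein-coding hosts. The genes, lists and tests were chosen with earlier results of these data known. Python 3.11.15, pandas 2.3.3, scipy 1.17.1 and matplotlib 3.10.9 were used for other steps.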

Additional observations from a re-analysis of the deposited data

How the results depend on the processing

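Of 319 alternative values, 277 kept their direction and call or stayed within their limit, 26 kept their direction but were not called, 11 moved and 5 changed sign. TMM, a pseudocount of 1, no filter, the replicate block, DESeq2 and the windows of 0 and 5 kb changed no call at a peak of the host genes that the text names, and moved no count over the host gene peaks or over all peaks by more than 1.5 times. With an equal total in peaks, all peaks called higher and lower numbered 6342 and 18092 instead of 10439 and 9548, peaks of the host genes called higher 6 instead of 11, and the median of the promoter peaks was 0.44. SNHG5 (0.12), SNHG6 (0.27) and SNHG15 (0.29) were then not called and SNHG12 was at -0.0756. With trended loess 5 peaks of the host genes were called higher and the median was 0.0853. GAS5 (-0.13), SNHG5 (-0.22) and SNHG12 (-0.17) changed sign, and SNHG6 (0.28), SNHG15 (0.11) and ZFAS1 (0.0597) were not called. The filter of at least 10 in every library left 5001 peaks called lower. By edgeR SNHG5 had 0.45 with an adjusted p of 0.0514. edgeR called 9899 peaks higher and 9025 lower, and DESeq2 9608 and 8383.

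Leaving out each library in turn gave 7 to 11 host gene peaks higher (7 without M-phase replicate 2), 1 to 3 lower (1 without M-phase replicate 3) and a median of 0.65 to 0.89. All peaks called higher ran from 7985 to 11906 and lower from 7171 to 8872. Promoter changes ran from 0.33 to 0.63 at SNHG5, 0.48 to 0.80 at SNHG6, 0.53 to 0.73 at SNHG15 and -0.23 to 0.21 at SNHG8, where it was 0.21 without G1 replicate 3. Libraries of the same number did not deviate together (r of 0.0059, -0.010 and 0.028). The labels do not say whether such libraries were prepared together, which these values cannot decide. With the replicate block 10881 peaks were higher and 10063 lower, with 11 and 3 of the host genes. The filter tested fewer peaks and leaving out a library left fewer samples. For the scalings the cause was not tested. How far depth and the number of libraries limit what could be called was not tested. In the simulation, 5.5% of 1.5-fold changes were recovered at a mean of at least 50. Only 200 of 73121 peaks were changed there, whereas 19987 were called in the measured data. The adjustment of p-values depends on that share, so the 5.5% does not measure what could be called here. A peak that was not called may still have changed.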
